A study of Mus musculus with 8 samples.

Results

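The 31 genes described here encode heterogeneous nuclear ribonucleoproteins (hnRNPs) and serine/arginine-rich (SR) splicing factors. They are the genes whose symbols begin with Hnrnp or Srsf, with pseudogene symbols left out, among the 33641 genes with a value in brown adipose tissue (BAT). 20 of them are hnRNP genes and 11 are SR genes. Interscapular BAT was taken from C57BL/6 mice aged 28 weeks that carried floxed alleles of HuR (gene symbol *Elavl1*) and an adiponectin-driven Cre recombinase (*Adipo-HuR-/-*), and from their control littermates, labelled wild-type. The controls were a mixture of wt/wt-cre+, flox/flox-cre- and wt/flox-cre- animals, and the genotype of each control library among these is not given in the sources used here. Cre driven by adiponectin is directed at adipocytes and not at the vascular, immune and other cells of the tissue, and HuR in single cell types was not measured. By their labels, 3 libraries were control (A7, A8 and A12) and 5 were *Adipo-HuR-/-* (the KO-labelled libraries A31, A29, A26, A25 and A24), each from 1 animal. The legend of the study gives the group sizes the other way round, and the groups follow the labels.

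hnRNPs coat nascent transcripts and often silence the exons near which they bind, whereas SR proteins bind exonic enhancers through RNA recognition motifs and recruit the spliceosome through their arginine- and serine-rich domains. Many members of both families limit their own amount: when the protein is abundant, its own transcript is spliced to hold a poison exon with a premature stop codon, or to keep an intron, and is not translated into the full protein. HuR is an RNA binding protein of the nucleus and cytoplasm that binds U-rich and AU-rich stretches, in introns as well as in mature mRNA, and thereby works on some of the transcripts that hnRNPs also bind.

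The estimated counts of a library summed to 60622522 for A7, 51751002 for A8 and 50673814 for A12 among the controls. For the KO-labelled libraries the sums were 67498055 (A26), 58727739 (A31), 50893173 (A29), 18264754 (A24) and 17558090 (A25), so that A24 and A25 were the shallowest. The 31 genes took between 0.191% (A8) and 0.269% (A31) of the counts of a library, or 43295 counts in A24 and 157787 in A31. Levels are given as CPM, counts relative to the size of the library, after scaling by the trimmed mean of M-values (TMM). The targeted gene, *Elavl1*, was at 50.6 CPM in A7, 48.01 CPM in A8 and 49.2 CPM in A12 among the controls, and 61.9 CPM in A24, 47.3 CPM in A25, 43.4 CPM in A26, 61.3 CPM in A29 and 61.2 CPM in A31 among the KO-labelled libraries. The mean was 49.3 ± 1.28 in controls (SD, n = 3) and 55.02 ± 8.95 in KO-labelled libraries (SD, n = 5), and the groups overlapped (two-sided exact permutation test over 56 splits, p = 0.411). The mean of *Elavl1* over the whole tissue was not lower in the KO-labelled libraries, although A25 and A26 lay below the controls. Each library is therefore called by its label, and every direction is one between labels.

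The tissue was checked against its markers. All 9 brown adipocyte markers, *Ucp1*, *Cidea*, *Adipoq* and others, were detected, and their summed level was 15632, 32888 and 23150.1 CPM in A7, A8 and A12 and 27812, 15147, 20182, 20238 and 24666 CPM in A24, A25, A26, A29 and A31, with the fatty acid carrier *Fabp4* as the most abundant by its mean, although *Ucp1* exceeded it in A12 and A31. The 18 skeletal muscle markers summed to 4027, 2525 and 60.2 CPM in A7, A8 and A12 and 54.3, 35.9, 47.4, 50.2 and 456 CPM in A24, A25, A26, A29 and A31. Muscle markers were high in A7 and A8, lower in A31, and near the level of A12 in the other 4 KO-labelled libraries. In A12 most of the sum came from 1 gene, the myosin light chain *Myl1*, at 52.4 CPM, which also led in A24, A25 and A29, while the myoglobin gene *Mb* led in A26. The muscle gene with the highest mean, the fast myosin *Myh4*, led in A7, A8 and A31. It was at 1048 CPM in A7, 457 CPM in A8 and 106 CPM in A31, and at 0.0209 CPM in A12. *Myh4* was at 0 in A25, A26 and A29. None of the 18 was at 0 in all libraries, all 18 were lower in the KO-labelled libraries, and 3 of them (*Myh7*, *Myl1* and *Myl2*) passed the threshold described with the members. The part of muscle RNA in the values that follow was not tested, beyond fits with a muscle score as covariate or without A7, A8 and A31. Endothelial markers summed to 415, 367 and 478 CPM in A7, A8 and A12 and 319.8, 469, 525, 566 and 519 CPM in A24, A25, A26, A29 and A31, and red blood cell markers to 772, 971 and 1082 CPM in A7, A8 and A12 and 1155, 517, 365, 855 and 777 CPM in A24, A25, A26, A29 and A31. All 7 endothelial markers had a log2 fold change above 0 and all 5 red blood cell markers one below 0, with 1 gene of each at an unadjusted p under 0.05 (*Tie1* and *Alas2*) and 1 of each with groups apart (*Pecam1* and *Alas2*), while both sums overlapped between the groups. Macrophage markers summed to between 45.98 and 160.0 CPM, lymphocyte markers to at most 2.96 CPM and Schwann cell and neuron markers to at most 8.18 CPM. Of those tested, 2 of 9 macrophage, 6 of 7 lymphocyte and 4 of 5 Schwann cell and neuron markers had a log2 fold change above 0, and *Cd3e* of the lymphocyte and *Sox10* of the Schwann cell markers had an unadjusted p under 0.05 with groups apart. No gene of these 5 lists passed the threshold, and their part in the values that follow was not tested. hnRNP and SR genes are expressed by every cell type of the tissue, and fewer cells of a type and less RNA per cell cannot be told apart in these libraries.

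No hnRNP or SR gene differed between the label groups past the threshold of an adjusted p of at most 0.05 and a fold change of at least 1.5. After Benjamini-Hochberg adjustment over all genes, edgeR's quasi-likelihood test called 0 of the 30 members tested, beside 105 of 14851 genes (0.707%), and 0 passed without the limit on fold change. The other tools called 0 members too, where limma voom called 1.06% of all genes, the likelihood ratio test of edgeR 4.41% and the Wald test of DESeq2 5.54%. An unadjusted p under 0.05 was found for 1 member by the quasi-likelihood test, 2 by DESeq2 and 0 by each of the other tools, beside 17.0% of all genes in the quasi-likelihood test, 18.4% in DESeq2, 16.0% in the likelihood ratio test and 18.6% in limma voom. The median log2 fold change of the members was 0.01, and that of all genes 0.00, with 16 members above 0 and 14 below. With no scaling beyond total counts, the medians of members and of all genes were both 0.23, so a direction below 0 or above it holds relative to the other genes. That scaling put 27 members above 0 and 3 below, beside 10719 and 4132 of all genes, and 7 members had an unadjusted p under 0.05, beside 20.1% of all genes, with 0 past the threshold. With TMM scaling, single members lay between -0.34 and 0.42. The 95% interval of the fold change stayed within 1.5-fold in either direction for 22 of the 30 members (14 hnRNP and 8 SR genes) and for 21.5% of all genes tested. The members also varied less between animals of a label than all genes did. The median SD within groups was 0.20 on the log2 scale, beside 0.35 for all genes. The highest library of a member stood at a median of 1.59 times its lowest, beside 2.17 times for all genes. All genes here include genes of lower counts, and no comparison with genes of the same level was made. The 95% interval also stayed within 1.5-fold for 15 of 35 core spliceosome genes and 5 of 19 tissue-type splicing regulators, lists described below. *Srsf12*, a relative of *Srsf10*, had between 0 and 6 counts in a library, did not pass the filter on low counts and was not tested.

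**Figure D1:**
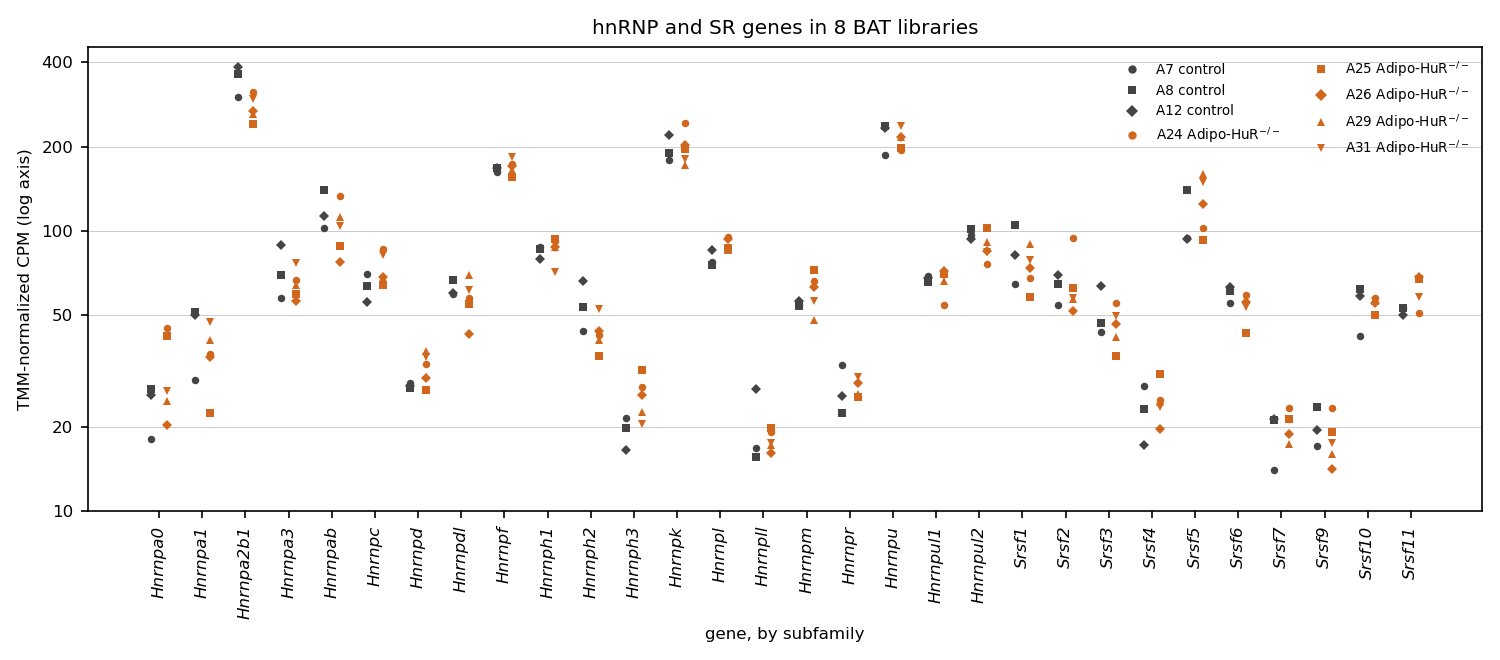
TMM-normalized CPM (log axis) of the 30 tested hnRNP and SR genes in each library; grey points are the 3 control libraries and orange points the 5 KO-labelled libraries, with 1 symbol for each animal. The groups overlap for every gene drawn except *Hnrnpl*.

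Levels of different genes were compared as TPM, which divides counts by transcript length and by the sum over the library. *Hnrnpa2b1* was the most abundant at a mean of 263 TPM over the 8 libraries (range 211 to 324), followed by *Hnrnpk* at 172 TPM (84.6 to 261), *Hnrnpf* at 129 TPM (84.2 to 154), *Srsf5* at 106 TPM (75.3 to 151) and *Hnrnpu* at 93.01 TPM (66.3 to 114). The ranges of neighbours in this order overlapped. Below *Srsf5*, the most abundant SR genes were *Srsf1* at 62.9, *Srsf11* at 56.8 and *Srsf2* at 49.7 TPM. Of the 30 tested members, the lowest were *Hnrnpr* at 13.1, *Srsf7* at 11.98 and *Hnrnpll* at 9.17 TPM, and *Srsf12* lay below them at 0.0133 TPM. For some members, *Srsf7* and *Hnrnpk* among them, fewer transcripts are listed than annotated, as described with the isoforms. Their levels and ranks, and the sums and ratios that hold them, rest on the listed transcripts alone. Summed over genes, the A/B subfamily held 25.8% of the members' TPM, the SR proteins 25.5%, the F/H subfamily 15.3% and *Hnrnpk* alone 10.3%. The A/B sum was above the SR sum in A7, A8, A12 and A24 and below it in A25, A26, A29 and A31. The ratio of summed hnRNP to summed SR TPM was 3.19, 2.77 and 3.30 in A7, A8 and A12 and 3.11, 2.93, 2.92, 2.51 and 2.75 in A24, A25, A26, A29 and A31. The ratio was highest in the control A12 and lowest in the KO-labelled A29, and the groups overlapped. Transcripts of *Hnrnpu* (9) and of *Srsf1* (6 with counts) are listed a second time under identifiers of alternative assembly sequences with identical values, and the copies were summed. Whether reads had been divided between the copies or counted in both cannot be told from the values, so the levels of these genes are uncertain while their fold changes are not touched by it.

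The hnRNP A/B proteins share paired RNA recognition motifs and a glycine-rich tail. In all 5 genes of the subfamily the log2 difference missed the threshold, and 4 of them were below 0 (median -0.21), beside 7413 of 14851 genes. With total counts as the only scaling, only 3 of all 30 tested members were below 0. *Hnrnpa2b1*, whose protein takes part in splicing and in the transport of RNA in granules, was at 300.2 CPM in A7, 363 CPM in A8 and 385 CPM in A12 among the controls, and 313 CPM in A24, 241 CPM in A25, 269 CPM in A26, 261 CPM in A29 and 296 CPM in A31 among the KO-labelled libraries. The KO-labelled libraries lay lower than A8 and A12, and only A24 reached the level of A7. The difference was -0.34 on the log2 scale (SE 0.16, 95% interval -0.69 to 0.01) and did not pass edgeR's quasi-likelihood test (Benjamini-Hochberg adjusted p = 0.313). It was -0.10 with total counts as the only scaling and -0.68 for the most abundant transcript alone. *Hnrnpa0*, a gene without introns whose protein binds AU-rich elements, was at 18.04 CPM in A7, 27.3 CPM in A8 and 25.9 CPM in A12 among the controls, and 44.9 CPM in A24, 42.04 CPM in A25, 20.3 CPM in A26, 24.8 CPM in A29 and 26.9 CPM in A31 among the KO-labelled libraries. It was high in A24 and A25, both shallow, and the other 3 KO-labelled libraries lay within the range of the controls. Its difference of 0.42 (SE 0.28, 95% interval -0.20 to 1.03) on the log2 scale did not pass edgeR's quasi-likelihood test (Benjamini-Hochberg adjusted p = 0.489), and it was 0.01 without A24 and A25, 0.25 without A7, 0.24 with a muscle score as covariate and 0.68 with total counts as the only scaling. *Hnrnpa1*, the exon silencer that opposes *Srsf1* at many splice sites, lay between 22.4 and 51.3 CPM, with its lowest values in A25 and A7. *Hnrnpa3*, a close relative of A2, lay between 56.4 and 89.1 CPM, and *Hnrnpab*, which binds DNA and RNA, between 77.4 and 140.4 CPM. Of the words of 31 bases in the transcripts of *Hnrnpa1* and *Hnrnpa3*, 29.3% and 28.1% also occur in transcripts of other genes, so that the division of reads between genes makes these counts uncertain.

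hnRNP C binds U tracts, also contacted by HuR, and *Hnrnpc* lay between 55.9 and 86.5 CPM. *Hnrnpd* encodes AUF1, which binds AU-rich elements and promotes decay of many mRNAs that HuR stabilizes. It was at 28.7 CPM in A7, 27.4 CPM in A8 and 28.1 CPM in A12 among the controls, and 33.4 CPM in A24, 27.04 CPM in A25, 29.9 CPM in A26, 37.2 CPM in A29 and 35.5 CPM in A31 among the KO-labelled libraries. A24, A26, A29 and A31 stood above the narrow range of the controls, and A25 below it. The difference of 0.22 on the log2 scale (SE 0.14, 95% interval -0.10 to 0.54) did not pass edgeR's quasi-likelihood test (Benjamini-Hochberg adjusted p = 0.487), it was 0.44 with total counts as the only scaling, and the most abundant transcript alone gave 0.57. Its relative *Hnrnpdl* lay between 42.9 and 69.4 CPM, with the lowest value in A26 and the highest in A29.

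The F/H subfamily recognises runs of G through modified RNA recognition motifs. *Hnrnph3* had the smallest p of all members. Its level was 21.4 CPM in A7, 19.7 CPM in A8 and 16.5 CPM in A12 among the controls, and 27.7 CPM in A24, 32.03 CPM in A25, 25.9 CPM in A26, 22.5 CPM in A29 and 20.4 CPM in A31 among the KO-labelled libraries. Only A31 of the KO-labelled libraries lay within the range of the controls, and the highest values were those of A25 and A24. The difference of 0.42 on the log2 scale (SE 0.18, 95% interval 0.02 to 0.81) had an unadjusted p of 0.0393 in edgeR's quasi-likelihood test and did not pass after adjustment (Benjamini-Hochberg adjusted p = 0.264). It was 0.25 without A24 and A25, 0.65 with total counts as the only scaling and 0.71 without A7, A8 and A31. *Hnrnph2*, an X-linked gene, was at 43.8 CPM in A7, 53.6 CPM in A8 and 66.1 CPM in A12 among the controls, and 42.7 CPM in A24, 35.8 CPM in A25, 43.9 CPM in A26, 40.9 CPM in A29 and 52.6 CPM in A31 among the KO-labelled libraries. Its values in A24, A25 and A29 were below those of all controls and its highest value was that of the control A12 (log2 fold change -0.34, SE 0.17, Benjamini-Hochberg adjusted p = 0.361 in edgeR's quasi-likelihood test). The difference of *Hnrnph2* was -0.17 without A12, -0.10 with total counts as the only scaling and -0.70 without A7, A8 and A31. *Hnrnpf* was the flattest of the members, at 162 CPM in A7, 168 CPM in A8 and 168 CPM in A12 among the controls, and 173 CPM in A24, 156 CPM in A25, 171 CPM in A26, 165 CPM in A29 and 185 CPM in A31 among the KO-labelled libraries, with its highest library at 1.19 times its lowest. *Hnrnph1*, the most studied splicing regulator of the subfamily, lay between 71.3 and 93.7 CPM; its lowest value was that of A31 and the other 7 libraries lay between 79.2 and 93.7 CPM. Words shared with other genes make up 38.5% of *Hnrnpf* and 21.9% of *Hnrnph2*, so these counts are uncertain in the same way as those of *Hnrnpa1*. Such words make up 17.1% of *Hnrnpk* and 10.8% to 14.1% of *Hnrnpc*, *Hnrnpm*, *Srsf3*, *Srsf5* and *Srsf10*. The counts and ranks of these genes carry a smaller uncertainty of the same kind.

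*Hnrnpk*, which binds C-rich RNA and DNA through KH domains, was at 179 CPM in A7, 190.1 CPM in A8 and 221 CPM in A12 among the controls, and 243 CPM in A24, 196 CPM in A25, 203 CPM in A26, 172 CPM in A29 and 181 CPM in A31 among the KO-labelled libraries. The groups overlapped, with A24 above all controls and A29 below them, and the difference (0.02 on the log2 scale, 95% interval -0.34 to 0.38) turned to -0.06 with limma voom and to -0.09 without A24 and A25. *Hnrnpl*, which binds CA repeats, was the only member whose groups did not overlap, at 77.2 CPM in A7, 75.6 CPM in A8 and 85.4 CPM in A12 among the controls, and 95.03 CPM in A24, 86.3 CPM in A25, 93.7 CPM in A26, 85.7 CPM in A29 and 86.8 CPM in A31 among the KO-labelled libraries. Every KO-labelled library stood above every control, A29 by a narrow margin over A12. Groups that do not overlap were found for 1 of 30 members and for 11.5% of all genes tested (5.37% with the KO-labelled group higher and 6.09% lower), and the difference of *Hnrnpl* (0.17 on the log2 scale, SE 0.13) did not pass edgeR's quasi-likelihood test (Benjamini-Hochberg adjusted p = 0.538). It was 0.40 with total counts as the only scaling, and the most abundant *Hnrnpl* transcript alone gave -0.19. *Hnrnpll*, known for its part in lymphocyte splicing, was at 27.2 CPM in A12 and between 15.5 and 19.8 CPM in the other 7 libraries. *Hnrnpm*, which binds GU-rich RNA, lay between 48.3 and 72.4 CPM, and *Hnrnpr*, a partner of *Syncrip* in RNA transport, between 22.4 and 33.3 CPM.

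*Hnrnpu* encodes SAF-A, which ties RNA to chromatin. It was at 187 CPM in A7, 237 CPM in A8 and 232 CPM in A12 among the controls, and 194 CPM in A24, 198 CPM in A25, 217 CPM in A26, 216 CPM in A29 and 237 CPM in A31 among the KO-labelled libraries. A31 and A8 were its highest libraries and A7 its lowest, and the groups overlapped (log2 fold change -0.04, 95% interval -0.38 to 0.29, and 0.02 without A8). The U-like genes *Hnrnpul1* and *Hnrnpul2* lay between 54.6 and 71.95 CPM and between 76.3 and 102 CPM, with A24 lowest for both.

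Of the SR genes, *Srsf11* had the smallest p in the main fit. With protein-coding transcripts only, or with the most abundant transcript of each gene, *Srsf6* had the smallest p of all members. It did not pass there (Benjamini-Hochberg adjusted p = 0.193 and 0.241 in edgeR's quasi-likelihood test). *Srsf11*, whose protein joins early spliceosome assembly, was at 53.3 CPM in A7, 53.2 CPM in A8 and 50.3 CPM in A12 among the controls. Its level was 51.2 CPM in A24, 67.7 CPM in A25, 68.7 CPM in A26, 67.2 CPM in A29 and 58.4 CPM in A31 among the KO-labelled libraries. A25, A26, A29 and A31 stood above the controls, whereas A24 lay among them (log2 fold change 0.26, SE 0.15, Benjamini-Hochberg adjusted p = 0.393 in edgeR's quasi-likelihood test). The difference was 0.50 with total counts as the only scaling, and the most abundant *Srsf11* transcript alone gave -0.02. *Srsf5*, an SR gene that responds to insulin and other hormones in several cell types, was at 94.1 CPM in A7, 139.6 CPM in A8 and 93.5 CPM in A12 among the controls, and 103 CPM in A24, 93.2 CPM in A25, 125 CPM in A26, 159.7 CPM in A29 and 150.2 CPM in A31 among the KO-labelled libraries. A29, A31 and the control A8 were high and A25, A12 and A7 low, so the spread within each group (SD 26.5 and 28.9 CPM) exceeded the difference of the means. *Srsf1*, the prototype of the family, was at 64.4 CPM in A7, 105 CPM in A8 and 82.1 CPM in A12 among the controls, and 67.8 CPM in A24, 58.3 CPM in A25, 73.6 CPM in A26, 90.1 CPM in A29 and 78.6 CPM in A31 among the KO-labelled libraries. A8 was highest and A25 lowest, and the groups overlapped (log2 fold change -0.19, 95% interval -0.62 to 0.24, and 0.01 without A8). *Srsf2*, which binds both C-rich and G-rich enhancers, was at 54.3 CPM in A7, 64.5 CPM in A8 and 69.5 CPM in A12 among the controls, and 94.5 CPM in A24, 62.7 CPM in A25, 51.99 CPM in A26, 57.2 CPM in A29 and 57.8 CPM in A31 among the KO-labelled libraries. A24 stood apart from the other 7 libraries, which lay between 51.99 and 69.5 CPM, and without A24 and A25 the log2 difference of 0.04 turned to -0.18. The other SR genes overlapped between the groups: *Srsf3*, the smallest family member, lay between 35.9 and 63.6 CPM, *Srsf4* between 17.2 and 30.9 CPM, *Srsf6* between 43.1 and 62.96 CPM, *Srsf7*, which carries a zinc knuckle, between 14.04 and 23.4 CPM, *Srsf9* between 14.1 and 23.6 CPM and *Srsf10*, a splicing repressor when dephosphorylated, between 42.3 and 62.3 CPM.

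**Figure D2:**
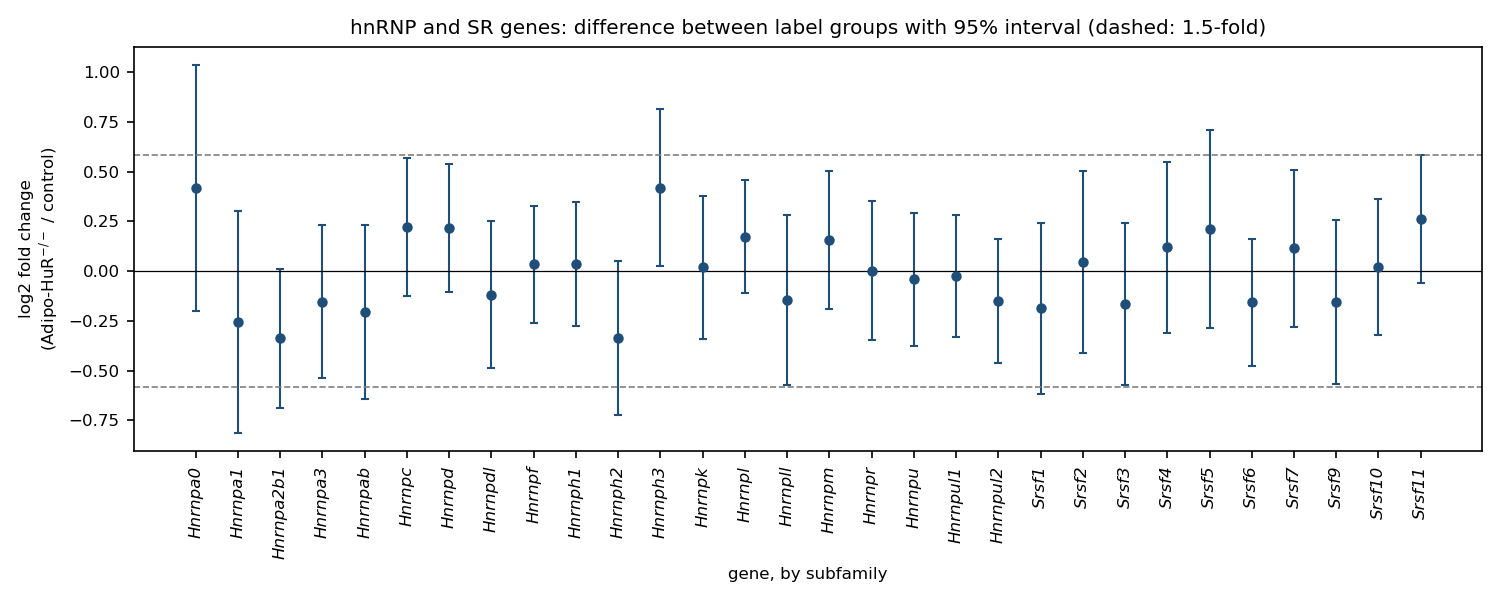
Log2 fold change of the KO-labelled over the control libraries for each of the 30 tested genes, with its 95% interval from edgeR's quasi-likelihood fit; dashed lines mark a fold change of 1.5. Every interval crosses 0 except that of *Hnrnph3*, and all point values lie between -0.34 and 0.42.

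Isoforms were compared next, as gene totals can hide a switch between transcripts. For 7 members the files list fewer transcripts than the annotation: 1 of 8 for *Srsf7*, 2 of 13 for *Hnrnpc*, 2 of 5 for *Hnrnpa1*, 1 of 2 for *Hnrnpul2*, 5 of 10 for *Srsf3*, 8 of 15 for *Hnrnpm* and 21 of 34 for *Hnrnpk*. Isoforms of *Srsf7* and *Hnrnpc* could hardly be compared, and the isoform shares of the others concern the listed transcripts alone. Of the members' transcripts 188 had enough counts to be tested. edgeR's quasi-likelihood test called 0 of them, beside 4 of 41559 transcripts overall (0.00962%). At an unadjusted p under 0.05 there were 11 of 188, beside 8.12% of all transcripts. Groups that do not overlap were found for 7 of the 188, beside 7.48% of all transcripts. The Wald test of DESeq2 called 4 of the 188, beside 2.05% of all transcripts. These were *Hnrnpa2b1*-201, *Hnrnph1*-202, *Hnrnpl*-211 and *Srsf11*-207, chosen for description after their values were seen. *Srsf11*-207 met the filter on low counts only through libraries where it was high, so its call is not read as a change. *Hnrnpa2b1*-201, a coding transcript that lacks an internal coding exon of 120 bases, was at 38.6 CPM in A7, 42.2 CPM in A8 and 46.2 CPM in A12 among the controls, and 25.6 CPM in A24, 26.9 CPM in A25, 16.7 CPM in A26, 17.4 CPM in A29 and 25.98 CPM in A31 among the KO-labelled libraries. All KO-labelled libraries stood below all controls, at a log2 fold change of -0.91 (SE 0.21, Benjamini-Hochberg adjusted p = 0.279 in edgeR's quasi-likelihood test). Its share of the counts of the gene overlapped between the groups, at 12.8%, 11.1% and 11.7% in A7, A8 and A12 and 8.29%, 11.7%, 6.27%, 6.72% and 8.68% in A24, A25, A26, A29 and A31, and its relative use did not pass edgeR's diffSpliceDGE (relative log2 change -0.52, unadjusted p = 0.239). *Hnrnpl*-211, a minor coding transcript, was between 1.31 and 1.49 CPM in the controls and between 2.04 and 3.04 CPM in the KO-labelled libraries, which did not overlap with them.

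Relative use, the change of a transcript against the other transcripts of its gene, was tested with edgeR's diffSpliceDGE. Of 185 members' transcripts 1 passed at an adjusted p of 0.05, beside 77 of 35915 transcripts (0.214%), and 6 had an unadjusted p under 0.05, beside 2.80% of all. Groups that do not overlap in the share of the gene's counts were found for 8 of the 185, beside 5.53% of all. The transcript that passed was *Srsf11*-207, which keeps an intron and met the filter on low counts only through A24, A25 and A26. It was at 0 counts in A7, A8, A12, A29 and A31, at 98 counts in A24, 111 in A25 and 117 in A26, or 10.8%, 7.76% and 2.51% of the counts of *Srsf11*. The KO-labelled group was thus divided, with A29 and A31 at the value of the controls. The Benjamini-Hochberg adjusted p from edgeR's diffSpliceDGE was 0.00277. As the filter was met only through libraries where the transcript was high, this p and the call are not read as a change. With A24, A25 or A26 left out, *Srsf11*-207 no longer had counts in enough libraries to be tested. With A12 left out it missed the threshold (adjusted p = 0.0503 in edgeR's diffSpliceDGE), and over the fits that tested it the adjusted p lay between 0.00152 and 0.336. The other 5 transcripts with the smallest p did not pass. The coding transcript *Hnrnph1*-202 held a share of the counts of its gene of 9.12%, 10.6% and 12.8% in A7, A8 and A12 and 36.98%, 29.8%, 18.2%, 19.9% and 26.8% in A24, A25, A26, A29 and A31. Every KO-labelled library used it more than every control, with the highest share in A24 (relative log2 change 1.29, Benjamini-Hochberg adjusted p = 0.806 in edgeR's diffSpliceDGE). *Hnrnpk*-215, a fragment with a retained intron, held 0.0354%, 0% and 0.102% in A7, A8 and A12 and 2.64%, 0.327%, 0.823%, 0.0899% and 0.284% in A24, A25, A26, A29 and A31. It was high in A24, and the groups overlapped. *Hnrnph1*-210, annotated as a processed transcript, had 65 counts in A7, 70 in A12, 14 in A29 and 25 in A31, and 0 in A8, A24, A25 and A26. *Hnrnpm*-203, with a retained intron, held 0.749%, 0.803% and 0.793% in A7, A8 and A12 and 0%, 0%, 0.210%, 0.396% and 0% in A24, A25, A26, A29 and A31. *Hnrnpul1*-202, a short coding transcript, held 1.22%, 0.700% and 0.613% in A7, A8 and A12 and 0%, 0%, 0.0916%, 0.275% and 0.313% in A24, A25, A26, A29 and A31. Both were below the range of the controls in all KO-labelled libraries. The former had 25 counts or fewer in a library and the latter 52 or fewer. As both met the filter on low counts mainly through the controls, where they were high, the separation is not read as a change.

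Exons that some transcripts of a gene hold and others skip were then read from the transcript annotation (GENCODE M21, GRCm38), and the use of an exon was expressed as the percentage, per length, that hold it among the transcripts that span its position. The members had 43 such exons in 23 genes, of which 24 had a length that is a multiple of 3. Separate groups were seen for 3 of the 43 (6.98%), beside 4.86% of 6768 exons of all genes. Of these, a coding exon sets the B1 form of hnRNP A2/B1 apart from the more abundant A2 form (36 bases, chr6:51467391-51467426, minus strand). The share of spanning *Hnrnpa2b1* transcripts with it was 11.3%, 9.85% and 12.7% in A7, A8 and A12 and 13.1%, 14.1%, 14.1%, 13.1% and 15.9% in A24, A25, A26, A29 and A31. The mean was 11.3% ± 1.42 in controls (SD, n = 3) and 14.1% ± 1.16 in KO-labelled libraries (SD, n = 5), with A24 and A29 just above the highest control. The sequence of this exon is shown because it encodes the part of the protein in which the forms differ.
Hnrnpa2b1 B1 exon: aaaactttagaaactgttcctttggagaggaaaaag
Another exon of the same gene (136 bases, chr6:51461920-51462055) lies outside the coding part. Only 4 transcripts of the gene, with 40.99% of its counts, could be compared for it, and *Hnrnpa2b1*-201 is the only one of them that skips it. Its share among these 4 was 72.3%, 68.5% and 67.2% in A7, A8 and A12 and 76.8%, 76.2%, 87.3%, 84.1% and 77.4% in A24, A25, A26, A29 and A31, higher in all KO-labelled libraries. The remaining exon was one of *Hnrnph1* (50 bases, chr11:50385141-50385190, plus strand) that holds the stop codon of the coding transcripts *Hnrnph1*-201 and *Hnrnph1*-203, and that *Hnrnph1*-202 skips. Its share was 89.8%, 88.99% and 85.6% in A7, A8 and A12 and 68.4%, 67.9%, 79.04%, 77.4% and 70.9% in A24, A25, A26, A29 and A31, lower in every KO-labelled library. These 3 percentages were singled out after all exons had been compared, they rest on the authors' division of reads between transcripts, and they are given without a test.

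Other exons of known protein forms overlapped between the groups. *Hnrnpd* has a pair of alternative coding exons whose combinations give its isoforms: the 57-base exon was present in 47.01% to 60.5% and the 147-base exon in 37.2% to 54.1% of transcripts over the 8 libraries. The 159-base exon that gives the long form of hnRNP A1 was present in 9.07% to 18.8%, the 120-base exon in the glycine-rich part of hnRNP A2/B1 in 56.5% to 69.3% and the 141-base exon of *Hnrnpab* in 50.3% to 64.02%. Both forms of *Hnrnpab* and of *Hnrnpd* were thus common in every library, whereas the short form of hnRNP A1 prevailed. The 81-base glycine-rich exon of *Hnrnpa3* was the most variable of these, from 58.3% in A24 to 94.7% in A25, both KO-labelled.

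Poison exons were found by a stop codon that the annotation places inside the alternative exon of a transcript marked for nonsense-mediated decay. The start of 5 of them, in 5 genes, is printed here, from the first base of the exon to that stop codon, which is in capitals, because the stop is what makes the transcript non-productive; each is on GRCm38, 5′ to 3′ on the strand of the gene.
Hnrnpl poison exon: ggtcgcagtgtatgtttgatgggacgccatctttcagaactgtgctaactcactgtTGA
Hnrnpll poison exon: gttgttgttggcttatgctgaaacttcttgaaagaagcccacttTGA
Srsf3 poison exon: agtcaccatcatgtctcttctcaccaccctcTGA
Srsf4 poison exon: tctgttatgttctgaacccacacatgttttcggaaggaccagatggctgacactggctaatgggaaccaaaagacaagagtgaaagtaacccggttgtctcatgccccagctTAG
Srsf6 poison exon: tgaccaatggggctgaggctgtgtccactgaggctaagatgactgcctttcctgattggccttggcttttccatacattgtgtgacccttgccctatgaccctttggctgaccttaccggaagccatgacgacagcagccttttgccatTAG
These stretches lie at chr7:28817335-28817393 (plus strand), chr17:80044976-80045022 (minus), chr17:29039454-29039487 (plus), chr4:131884276-131884390 (plus) and chr2:162932815-162932966 (plus). The *Srsf3* exon (456 bases) was held by a share of the transcripts that span it of 54.04%, 61.6% and 46.3% in A7, A8 and A12 and 57.5%, 73.3%, 55.3%, 58.6% and 56.9% in A24, A25, A26, A29 and A31. A25 was highest and A12 lowest, and the groups overlapped. The *Srsf6* exon (268 bases) was present in 67.8%, 47.03% and 54.8% in A7, A8 and A12 and 73.03%, 78.9%, 73.6%, 65.8% and 67.8% in A24, A25, A26, A29 and A31. A8 and A12 were the lowest libraries, but A7 reached the level of A31 and exceeded that of A29. The *Hnrnpll* exon (83 bases) was present in 45.03%, 23.6% and 14.8% in A7, A8 and A12 and 34.9%, 66.4%, 59.4%, 41.5% and 38.5% in A24, A25, A26, A29 and A31, with A25 and A26 highest and A12 lowest. The *Hnrnpl* exon was present in 12.99% to 36.7%, with both ends of this range in controls (A12 and A8), and the *Srsf4* exon in 3.32% to 8.50%. *Srsf11* holds a pair of such exons, of 117 and 109 bases, present in 0.572% to 16.5% and in 8.09% to 21.5% of the spanning transcripts, which hold 37.7% of the counts of the gene, and their groups overlapped as well.

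**Figure D3:**
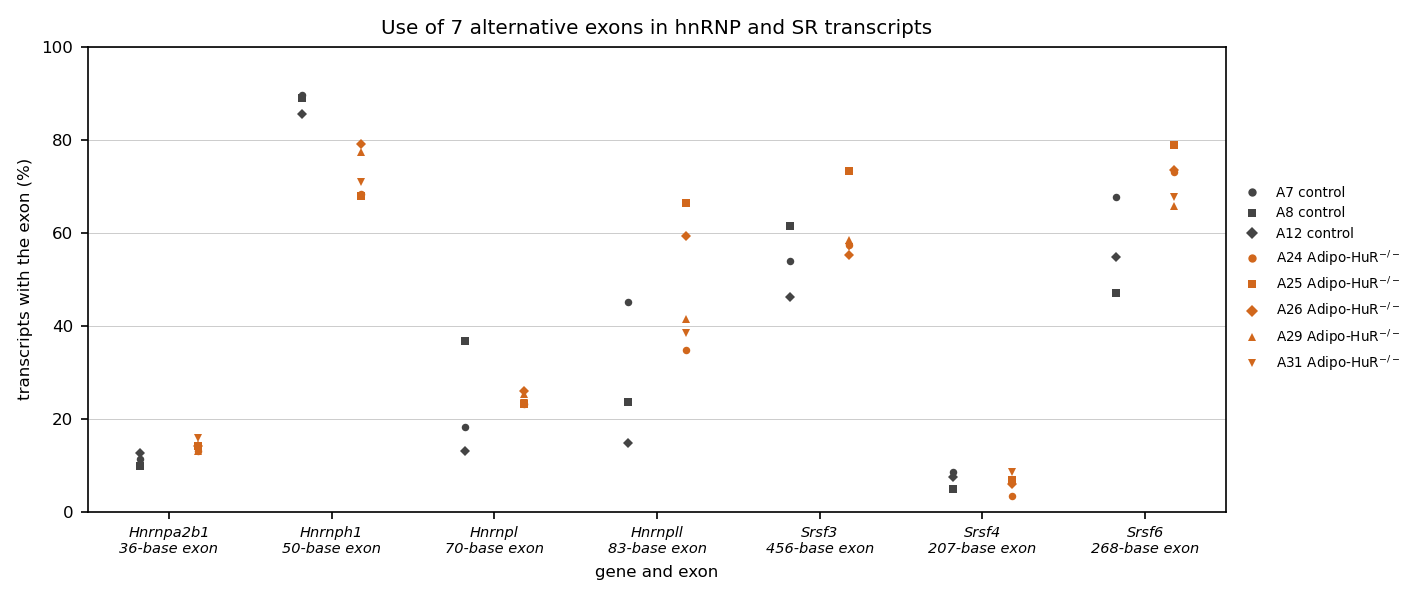
Percentage of transcripts per length that hold each of 7 alternative exons, in each library; grey points are controls, orange points KO-labelled libraries, and the exon length stands under the gene. The B1 exon of *Hnrnpa2b1* and the 50-base exon of *Hnrnph1* do not overlap between the groups, and the 5 poison exons do.

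A broader measure of unproductive splicing is the share of a gene's counts in transcripts not annotated as protein coding, among them those with retained introns or marked for nonsense-mediated decay. It could be formed and tested for 22 members, 13 hnRNP and 9 SR genes, as coding transcripts alone are listed for the others. Mean shares had a median of 30.6% over the 22 members and 10.1% over the 6186 genes tested. In limma 0 of the 22 passed at a Benjamini-Hochberg adjusted p of 0.05, beside 1 of 6186 genes (0.0162%), and 2 had an unadjusted p under 0.05, 1 in each direction, beside 8.0% of all genes. Groups that do not overlap in this share were found for 0 of the 22 and for 6.09% of the 6175 genes with a share in every library. The median difference, as the log2 ratio of non-coding to coding counts, was 0.13 for the members and 0.25 for all genes, with the ratio above that of the controls in 14 of the 22 members and in 4070 of all genes. Over all tested genes together, the share of counts in non-coding transcripts was 8.62%, 10.5% and 8.67% in A7, A8 and A12 and 11.4%, 10.3%, 9.54%, 10.7% and 9.93% in A24, A25, A26, A29 and A31. A24 was highest and A7 lowest, and the control A8 lay among the KO-labelled libraries. The median share of a gene was 8.92%, 7.94% and 7.42% in A7, A8 and A12. It was 8.46%, 10.3%, 9.39%, 9.97% and 9.22% in A24, A25, A26, A29 and A31. By this median A12 was lowest and A25 highest, and only A24 of the KO-labelled libraries lay below A7.

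The highest shares belonged to *Srsf3*, at 63.9%, 72.6% and 57.6% in A7, A8 and A12 and 71.1%, 80.6%, 68.1%, 72.3% and 67.1% in A24, A25, A26, A29 and A31. Coding transcripts were the minority in every library, with 40.7% of all its counts in the poison exon transcript and 26.4% in transcripts with retained introns. *Srsf11* had a share of 63.2%, 65.7% and 55.7% in A7, A8 and A12 and 50.5%, 66.3%, 65.1%, 70.5% and 58.6% in A24, A25, A26, A29 and A31, nearly all of it in transcripts with retained introns (61.1% of its counts), with both the lowest and the highest value in KO-labelled libraries (A24 and A29). *Srsf6* had 56.7%, 35.2% and 42.2% in A7, A8 and A12 and 62.5%, 69.01%, 66.8%, 56.3% and 55.99% in A24, A25, A26, A29 and A31. The 3 highest libraries, A25, A26 and A24, were KO-labelled, but the control A7 lay above A29 and A31 (log2 ratio difference 1.04, 95% interval 0.17 to 1.90, Benjamini-Hochberg adjusted p = 0.576 in limma; unadjusted p = 0.0240). *Hnrnpu* stood at 67.3%, 55.7% and 55.9% in A7, A8 and A12 and 55.6%, 68.3%, 65.5%, 62.9% and 62.1% in A24, A25, A26, A29 and A31, with the control A7 among the highest. *Hnrnph1* stood at 66.1%, 61.4% and 63.8% in A7, A8 and A12 and 56.7%, 51.6%, 54.4%, 61.99% and 55.2% in A24, A25, A26, A29 and A31, all of it in transcripts annotated as processed. A25, A26, A31 and A24 lay below the controls and A29 among them (log2 ratio difference -0.47, 95% interval -1.07 to 0.13, Benjamini-Hochberg adjusted p = 0.702 in limma). *Hnrnpll* stood at 58.7%, 40.4% and 29.9% in A7, A8 and A12 and 39.6%, 75.5%, 71.2%, 60.8% and 51.5% in A24, A25, A26, A29 and A31, the widest range of these genes, with A12 lowest (log2 ratio difference 1.03, 95% interval -0.36 to 2.43, Benjamini-Hochberg adjusted p = 0.714 in limma). The difference of *Hnrnpll* was 0.63 without A12 and 1.96 without A7, A8 and A31.

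At the low end, *Hnrnpm* had the smallest p of the members, at 1.32%, 1.19% and 1.57% in A7, A8 and A12 and 0.294%, 0.383%, 0.731%, 1.20% and 0.463% in A24, A25, A26, A29 and A31. A24, A25, A26 and A31 lay below the controls, and A29 reached the level of A8 (log2 ratio difference -1.27, 95% interval -2.30 to -0.25, Benjamini-Hochberg adjusted p = 0.572 in limma; unadjusted p = 0.0202). Non-coding counts were 44, 25 and 42 in A7, A8 and A12. They were 3, 6, 31, 30 and 17 in A24, A25, A26, A29 and A31. All were in transcripts with retained introns, among them the *Hnrnpm* transcript described with relative use. The values of that transcript and this share are therefore not independent. Without A24 and A25 the difference was -0.87, and with 5 in place of 0.5 counts added to each class it was -0.93. *Hnrnpk* stood at 5.69%, 6.95% and 8.26% in A7, A8 and A12 and 20.4%, 15.3%, 10.3%, 9.35% and 7.94% in A24, A25, A26, A29 and A31. A24 and A25, both shallow, were highest, A26 and A29 lay above the controls and A31 among them (log2 ratio difference 0.88, 95% interval -0.04 to 1.81, Benjamini-Hochberg adjusted p = 0.637 in limma). With only transcripts marked for nonsense-mediated decay counted as non-coding, the difference of *Hnrnpk* turned to -0.69, and it was 0.45 without A24 and A25 and 0.49 with a muscle score as covariate. *Hnrnpul1* had 0.545%, 0.174% and 0.0310% in A7, A8 and A12 and 0.418%, 0.491%, 0.347%, 0.303% and 0.333% in A24, A25, A26, A29 and A31, with A7 highest, A12 lowest and the KO-labelled libraries between them, on at most 23 non-coding counts in a library (log2 ratio difference 1.21, 95% interval -0.38 to 2.80, Benjamini-Hochberg adjusted p = 0.706 in limma). The difference of *Hnrnpul1* was 0.27 without A12, 0.72 with 5 in place of 0.5 counts added to each class and 2.22 with a muscle score as covariate. The remaining members tested had mean shares between 1.68% (*Hnrnpa3*) and 44.9% (*Srsf5*), and overlapped between the groups. The division of reads between overlapping transcripts was the authors', and was not checked against splice junctions.

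**Figure D4:**
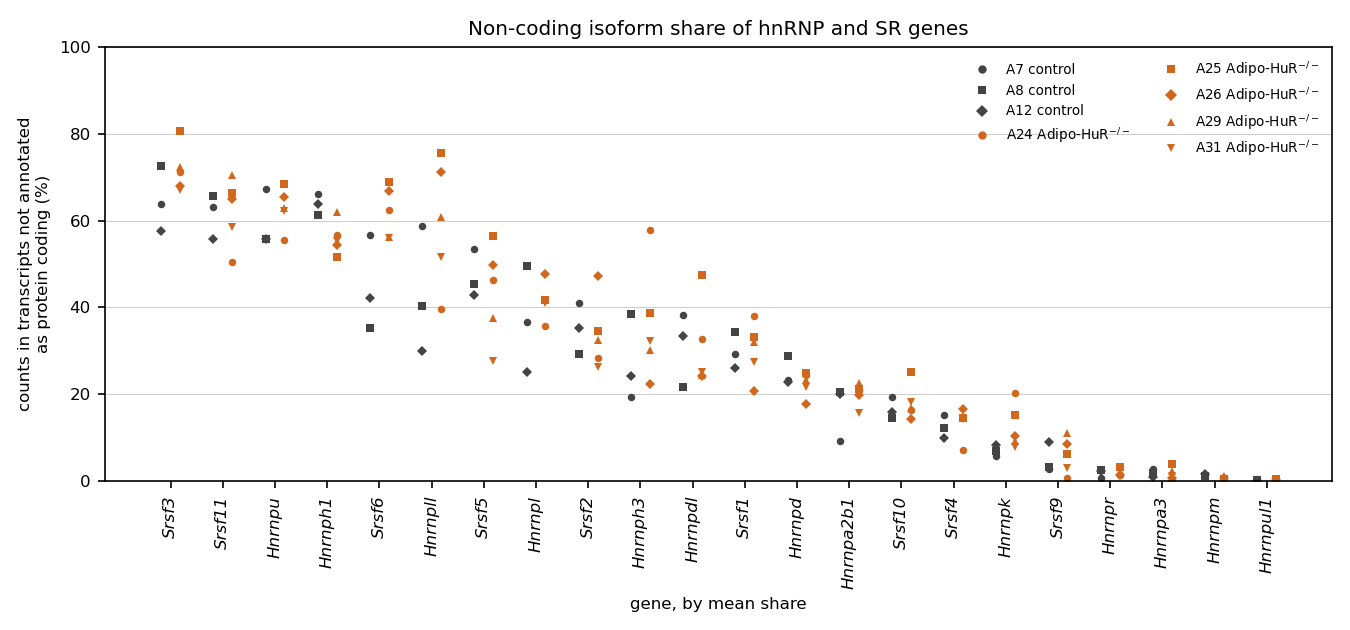
Share of counts in transcripts not annotated as protein coding, in percent, for the 22 hnRNP and SR genes tested, in order of their mean; grey points are controls and orange points KO-labelled libraries. *Srsf3* has the highest mean share and *Hnrnpul1* the lowest, and the groups overlap for every gene drawn, as for most genes tested.

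Genes that act with hnRNP and SR proteins were read from 7 lists of the splicing pathway. Of 118 tested, edgeR's quasi-likelihood test called 0 after Benjamini-Hochberg adjustment, and 21 had an unadjusted p under 0.05, close to the 17.0% of all genes. The Wald test of DESeq2 and the likelihood ratio test of edgeR each called 5 (*Clk2*, *Rsrc1*, *Mbnl2*, *Rbfox1* and *Rbm24*), and limma voom called 1 (*Mbnl2*), where they called 5.54%, 4.41% and 1.06% of all genes. By list, an unadjusted p under 0.05 was found for 1 of 11 SR kinases, phosphatases and import factors, which was higher, for 2 of 15 SR-related regulators, which were lower, and for 4 of 17 hnRNP relatives under other names, 1 of them higher. It was found for 5 of 19 tissue-type splicing regulators, 1 of them higher, for 4 of 35 core spliceosome genes, all higher, for 4 of 14 nonsense-mediated decay genes, 2 in each direction, and for 1 of 7 genes of the exon junction and export, which was higher. With so few genes in a list, none of these counts is read as a change of the list, and that of the core spliceosome lies below the share over all genes. The medians of the lists lay between -0.12 and 0.10 on the log2 scale.

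The gene with the smallest p of each list follows. *Clk2*, a kinase that phosphorylates SR proteins in the nucleus, was at 12.2, 15.5 and 12.7 CPM in A7, A8 and A12 and 21.5, 23.4, 22.7, 19.2 and 18.4 CPM in A24, A25, A26, A29 and A31. All KO-labelled libraries stood above all controls (log2 fold change 0.64, SE 0.15, Benjamini-Hochberg adjusted p = 0.0806 in edgeR's quasi-likelihood test). *Rsrc1*, an SR-related factor, was at 15.3, 13.5 and 11.7 CPM in A7, A8 and A12 and 8.35, 6.88, 7.76, 9.59 and 8.53 CPM in A24, A25, A26, A29 and A31, lower in every KO-labelled library (log2 fold change -0.71, SE 0.16, Benjamini-Hochberg adjusted p = 0.0757 in edgeR's quasi-likelihood test). *Syncrip*, also known as hnRNP Q, was at 56.3, 54.2 and 59.8 CPM in A7, A8 and A12 and 40.7, 37.2, 38.4, 38.8 and 36.9 CPM in A24, A25, A26, A29 and A31. The KO-labelled libraries stood below all controls and close to each other (log2 fold change -0.56, SE 0.12, Benjamini-Hochberg adjusted p = 0.0626 in edgeR's quasi-likelihood test). *Mbnl2*, a muscleblind protein that controls developmental splicing, was at 150.2, 133 and 187 CPM in A7, A8 and A12 and 89.4, 105, 97.1, 93.4 and 92.5 CPM in A24, A25, A26, A29 and A31. Its groups were likewise apart (log2 fold change -0.72, SE 0.15, Benjamini-Hochberg adjusted p = 0.0612 in edgeR's quasi-likelihood test). *Snrnp70*, a protein of the U1 particle, was at 56.6, 58.5 and 44.9 CPM in A7, A8 and A12 and 69.8, 80.8, 75.7, 80.5 and 70.2 CPM in A24, A25, A26, A29 and A31, higher in every KO-labelled library (Benjamini-Hochberg adjusted p = 0.121 in edgeR's quasi-likelihood test). *Upf2*, a scaffold of nonsense-mediated decay, was at 28.1, 26.8 and 31.2 CPM in A7, A8 and A12 and 17.8, 20.4, 23.6, 22.03 and 24.3 CPM in A24, A25, A26, A29 and A31, lower in every KO-labelled library. The export helicase *Ddx39b* was at 45.9, 43.9 and 40.1 CPM in A7, A8 and A12 and 61.4, 51.5, 49.2, 49.1 and 62.5 CPM in A24, A25, A26, A29 and A31, higher in every KO-labelled library. As the smallest p of a list these genes were likely to be apart, and the separation is no support for the list. Among the other genes called by DESeq2, *Rbfox1*, a splicing regulator of muscle and neurons, was at 3.04, 2.58 and 0.104 CPM in A7, A8 and A12 and 0, 0, 0.0741, 0.0758 and 0.333 CPM in A24, A25, A26, A29 and A31. *Rbm24*, a muscle splicing regulator, was at 2.87, 2.0 and 0.104 CPM in A7, A8 and A12 and 0.0564, 0.142, 0.0296, 0.114 and 0.530 CPM in A24, A25, A26, A29 and A31. Both were high in A7 and A8 and next highest in A31, as were the skeletal muscle markers, whose part in the values of these genes was not tested.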

How the data were processed

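Poly(A) RNA of interscapular BAT from 8 mice was sequenced. The authors deposited 1 table per library with an estimated count for each Ensembl transcript, not scaled for length or library size. Reads had been mapped in CLC Genomics Workbench per the authors' methods, and the program that divided reads between transcripts is not stated. Counts were summed over the transcripts of a gene symbol and rounded. Identical copies of a transcript were summed. Members were symbols that begin with Hnrnp or Srsf, without pseudogenes (*Hnrnpa1l2-ps*). Members and lists were chosen with earlier results of these data known.

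All genes or transcripts were fitted together in edgeR 4.0.16 (R 4.3.3) with TMM, filterByExpr and the quasi-likelihood test. p-values measure the spread between animals and were adjusted by the Benjamini-Hochberg method over everything tested. They do not hold the uncertainty of the division of reads between transcripts. Relative use was tested with diffSpliceDGE, which pools the spread over the transcripts of a gene, so its p does not rest on the animals alone. The log2 ratio of non-coding to coding counts (0.5 added to each, mean of at least 10 in each class) was tested with limma 3.58.1. DESeq2 1.42.0, the likelihood ratio test and limma voom served as other tools. Exon use was read from GENCODE M21 (GRCm38) for exons with a mean of at least 10 counts on each side and a mean use between 5 and 95%. CPM and TPM are relative to library size, TPM also to length. The steps were tested on simulated data.

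Values in every library are given for *Elavl1*, the 6 members with the smallest p, members whose groups did not overlap, the 4 hnRNP and 4 SR genes with the highest TPM, the 6 transcripts with the smallest p for use, and the 6 members each with the highest share and with the smallest p for it. Of each pathway list the gene with the smallest p is named. Alternatives concerned scaling, test, filter, summing, a muscle score, base composition, thresholds, pseudocounts and libraries left out.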

Additional observations from a re-analysis of the deposited data

Results flagged for a closer look

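Among the KO-labelled libraries 53 values, levels and non-coding shares of members among them, were examined for a library far from the others. The critical ratio of gap to range was 0.71, and 3 stood out. *Hnrnph1* was at 71.3 CPM in A31, below the other 4 by 0.727 of the range. *Srsf2* was at 94.5 CPM in A24, above the other 4 by 0.748 of the range. The non-coding share of *Srsf4* was 7.25% in A24, below the other 4 by 0.743 of the range. Chance gives such a result in about 1 in 20 groups of 5. The controls, with 3 libraries, were not examined in this way.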

How the results depend on the processing

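The number of hnRNP and SR genes past the threshold was 0 under all 23 alternatives, and the number with a changed non-coding share 0 under all 16. For 23 values of named members, 414 alternative values were computed, and 380 kept their direction and their side of the threshold, 32 changed direction, and 2, both for *Srsf11*-207, no longer passed. The number of all genes past the threshold, 105, moved to 823 with DESeq2's Wald test, 655 with the likelihood ratio test of edgeR, 32 with protein-coding transcripts only, 16 with the most abundant transcript of each gene, 15 with a muscle score as covariate, 58 with the GC trend removed, 5 without A24 and A25 and 4 without A7, A8 and A31. With single libraries left out it lay between 10 (without A26) and 190 (without A12). Total counts as the only scaling shifted the median of all genes to 0.23 and turned 36 higher and 69 lower genes into 96 and 25. The members' median, 0.01, moved to 0.23 with total counts, -0.09 with the most abundant transcript, 0.11 with the GC trend removed and -0.08 without A7, A8 and A31. DESeq2's Wald test called 4 members' transcripts in place of 0, among them *Srsf11*-207, whose call is not read as a change. The number of members' transcripts past the threshold for use, 1, became 0 without A24 and A25 and with at least 10 counts in every library. With single libraries left out it was 0 to 1 (0 without A12, A24, A25 or A26).

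Signs changed for values near 0, and also for *Srsf11* (0.26 in the main fit), *Hnrnpl* (0.17), *Srsf1* (-0.19) and the share of *Hnrnpk* (0.88). With the most abundant transcript they changed for *Srsf11* (-0.02), *Hnrnpl* (-0.19), *Hnrnpk* (-0.14), *Hnrnpf* (-0.01) and *Srsf2* (-0.08). *Hnrnpk* was at -0.06 with limma voom and at -0.06 with protein-coding transcripts, and *Srsf2* at -0.06 with limma voom. With a muscle score *Hnrnpk* was at -0.12 and *Srsf2* at -0.10. Without A24 and A25 *Hnrnpk* was at -0.09, *Srsf2* at -0.18 and *Hnrnpu* at 0.02. Without A7, A8 and A31 *Hnrnpk* was at -0.12, *Srsf2* at -0.06 and *Hnrnpf* at -0.01. With total counts *Hnrnpu* was at 0.20 and *Srsf1* at 0.07, and with the GC trend removed *Hnrnpu* was at 0.08. With single libraries left out *Hnrnpk* ranged from -0.07 to 0.11, *Hnrnpf* from 0.00 to 0.06, *Hnrnpu* from -0.15 to 0.02, *Srsf1* from -0.35 to 0.01, *Srsf2* from -0.14 to 0.12 and the non-coding share difference of *Srsf11* from -0.13 to 0.22. That of *Hnrnpk* was at -0.69 with transcripts marked for nonsense-mediated decay alone. The cause was not tested. Over all alternatives the log2 fold change of *Hnrnph3* lay between 0.24 and 0.71, that of *Hnrnpa2b1* between -0.68 and -0.10, that of *Hnrnph2* between -0.70 and -0.10, that of *Srsf11* between -0.02 and 0.50, that of *Hnrnpd* between 0.16 and 0.57, that of *Hnrnpa0* between 0.01 and 0.68, that of *Hnrnpl* between -0.19 and 0.40 and that of *Srsf5* between 0.10 and 0.47. The non-coding share difference of *Srsf3* lay between 0.26 and 1.01, that of *Srsf6* between 0.75 and 1.39, that of *Hnrnpu* between 0.08 and 0.44, that of *Hnrnph1* between -0.56 and -0.39, that of *Hnrnpll* between 0.63 and 1.96, that of *Hnrnpm* between -1.55 and -0.87 and that of *Hnrnpul1* between 0.27 and 2.22.

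For transcripts, use and shares, keeping identical copies apart and leaving out A7, A8 and A31 were chosen after seeing the data. Fits that leave 1 control assume that it varies like the KO-labelled libraries. *Srsf11*-207 could not be fitted without A24, A25 or A26 or with at least 10 counts in every library. No paired analysis was possible because the groups share no replicate numbers. The depth of A24 and A25 limits what rare transcripts can show.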
